A study of Mus musculus with 18 samples.

Results

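The genes described here are 32 mouse genes of DNA replication and mitosis, read across 5 Klf1 genotypes of sorted spleen erythroblasts and against the level of the B cell transcript Cd79a. They were chosen as a list of names for S phase (10 genes) and for G2 and mitosis (22 genes). All 32 are among the 23365 rows of the count table, and all 32 are among the 13405 genes that had enough counts to be tested. RNA-seq libraries came from spleen cells sorted as CD71 and TER119 positive, with total RNA taken by Trizol and made into libraries with the Swift Rapid RNA kit. The 18 libraries fall into WT/WT (3 libraries, both Klf1 alleles wild type), WT/D45 (3, 1 D45 allele), D45/D45 (3, both alleles D45), WT/KO (5, 1 null allele) and D45/KO (4, D45 beside a null allele). KLF1 is an erythroid transcription factor, and the study's title concerns missense changes in the linker-2 segment between its zinc fingers. The labels say no more about the D45 or KO alleles, or about the age and strain of the mice. The study describes its compound heterozygous mice as anaemic, with large spleens and more splenic erythroblasts, so that in D45/KO the allele pair and the anaemia cannot be told apart.

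Dividing cells switch on the S phase set first, largely through E2F factors, and the mitosis set later, when activating complexes replace the repressor DREAM at promoters that carry a CHR element (cell cycle genes homology region) and CCAAT boxes. Erythroblasts divide several times while they make haemoglobin and then leave the cell cycle before they lose the nucleus. The spleen of a mouse under erythropoietic stress is a site of such divisions, and it also holds dividing B cells in germinal centres.

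The promoters of 6 members are printed to show which of the letters of these pathways each carries. They are the first 3 mitosis and the first 3 S phase members of the list that have a window with a match to any of them. Each run is the 250 bases before the annotated start in RefSeq on build GRCm38.p6, written 5′ to 3′ on the gene's strand; capitals mark a match on either strand to CHR (TTTGAA or TTTAAA), to CCAAT, or to an E2F word. The E2F words are TTTCGCGC with its shorter form TTCGCGC, TTTGGCGC with its shorter form TTGGCGC, and the word TTCCCGC. A shorter form lies inside the longer one, and an E2F and a CCAAT match overlap in Ccnb1.
Mki67, chr7:135716380-135716629, minus strand: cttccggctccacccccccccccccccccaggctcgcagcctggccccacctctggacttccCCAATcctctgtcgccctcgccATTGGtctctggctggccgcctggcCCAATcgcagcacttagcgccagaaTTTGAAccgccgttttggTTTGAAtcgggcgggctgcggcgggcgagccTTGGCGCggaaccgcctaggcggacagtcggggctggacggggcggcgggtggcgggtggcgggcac
Top2a, chr11:99024190-99024439, minus strand: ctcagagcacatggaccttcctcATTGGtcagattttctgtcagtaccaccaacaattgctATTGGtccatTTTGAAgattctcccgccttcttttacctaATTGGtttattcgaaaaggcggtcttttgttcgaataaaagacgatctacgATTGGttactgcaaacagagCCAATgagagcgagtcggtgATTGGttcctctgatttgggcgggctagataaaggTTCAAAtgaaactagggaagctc
Ccnb1, chr13:100786487-100786736, minus strand: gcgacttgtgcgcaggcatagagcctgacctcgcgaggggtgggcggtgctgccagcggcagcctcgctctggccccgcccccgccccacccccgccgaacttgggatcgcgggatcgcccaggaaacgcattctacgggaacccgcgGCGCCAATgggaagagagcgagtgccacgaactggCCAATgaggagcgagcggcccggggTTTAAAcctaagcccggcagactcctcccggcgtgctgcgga
Mcm2, chr6:88898781-88899030, minus strand: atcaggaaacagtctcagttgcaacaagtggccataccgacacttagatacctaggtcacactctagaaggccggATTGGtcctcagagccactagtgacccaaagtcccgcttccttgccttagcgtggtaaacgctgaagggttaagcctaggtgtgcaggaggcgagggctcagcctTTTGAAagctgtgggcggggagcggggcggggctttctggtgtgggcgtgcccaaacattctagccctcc
Mcm3, chr1:20820313-20820562, minus strand: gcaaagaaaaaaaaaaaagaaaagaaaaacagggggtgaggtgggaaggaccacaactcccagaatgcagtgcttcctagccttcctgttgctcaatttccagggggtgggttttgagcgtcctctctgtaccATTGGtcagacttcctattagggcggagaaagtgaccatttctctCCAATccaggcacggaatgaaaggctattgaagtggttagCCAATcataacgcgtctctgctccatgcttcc
Mcm5, chr8:75109259-75109508, plus strand: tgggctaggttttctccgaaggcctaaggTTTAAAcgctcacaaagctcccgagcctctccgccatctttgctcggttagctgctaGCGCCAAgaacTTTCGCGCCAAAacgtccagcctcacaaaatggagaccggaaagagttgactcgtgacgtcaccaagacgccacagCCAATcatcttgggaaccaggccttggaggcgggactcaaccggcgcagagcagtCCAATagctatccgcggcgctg
The Mki67 window holds CHR letters 116 and 98 bases before the start with 3 CCAAT matches between 188 and 141, and the Top2a window holds 6 CCAAT matches between 227 and 58 bases before the start. The Ccnb1 window has its CHR letters 42 bases before the start, and the Mcm5 window has its longer E2F words 153 and 149 bases before it. Of the other S phase windows printed, that of Mcm2 holds CHR and CCAAT letters and that of Mcm3 CCAAT letters only, without an E2F word in either. Across the 27 members with a window, CHR letters were in 10 of 18 mitosis members and 2 of 9 S phase members, against 25.2% of 32851 windows of all genes. E2F words were in 4 of 9 S phase members and 3 of 18 mitosis members, against 6.69% of all windows. CCAAT letters were in 23 of 27 members, against 33.8% of all windows. A member counted if any of its windows matched, whereas these shares are of single windows (32851 for 27025 genes), so the measures differ. The windows describe letters only, and no window is at hand for Ccna2, Aurkb, Mcm4, Tpx2 and Kif20a.

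Libraries held 9360455 to 56323588 counts. Klf1 was read at 452, 1047 and 964 counts per 1000000 (CPM) in WT/WT, at 230.3, 158, 191, 659 and 834 in WT/KO and at 585, 282, 676 and 763 in D45/KO, so that the ranges of the genotypes overlap. The labels do not say which part of the gene the null allele lacks, and a missense allele need not change a count. Cd79a, a signalling chain of the B cell receptor, lay at 22.0 to 219 CPM in 9 libraries and at 0 to 2.22 CPM in the other 9. The former are called B-rich and the latter B-poor below. B-rich libraries are replicate 1 of every genotype, replicates 2 and 3 of WT/KO, and replicates 2 and 3 of D45/KO. The summed level of 13 B cell markers was 415 to 3950 CPM in B-rich and 23.1 to 173 CPM in B-poor libraries, where all but Cd74 read 0 in at least 1 library. The summed level of 14 erythroblast markers, among them Tfrc (CD71), was 16073 to 54512 CPM in B-rich and 63363 to 124841 CPM in B-poor libraries, with none at 0. In bulk RNA, fewer cells of a type and less RNA per cell cannot be told apart.

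Scaling matters to everything that follows. CPM here uses library sizes adjusted by TMM, which sets the typical gene level between libraries, and the TMM factors were 1.09 to 1.93 in B-rich and 0.366 to 0.954 in B-poor libraries. The deposited counts per library, with no such factor, give the members 0.252 to 0.726% (S phase) and 0.744 to 1.74% (mitosis) of counts in B-rich libraries, against 0.146 to 0.619% and 0.492 to 1.87% in B-poor ones. These shares overlap, whereas TMM places the members lower in B-rich libraries. Globin transcripts made up 6.28 to 19.1% of counts in B-rich and 14.1 to 47.2% in B-poor libraries, and their part in this was not tested.

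All 32 members were expressed in all 18 libraries. Per kilobase of the longest coding transcript, used to compare genes, Mki67 (a coat protein of mitotic chromosomes) had the highest mean level, 543 ± 226 CPM per kb (SD, n = 18). It was followed by Rrm2 at 477 ± 217 and Pcna at 455 ± 195 CPM per kb. The lowest were the spindle checkpoint genes Ttk at 16.0 ± 6.76 and Mad2l1 at 11.8 ± 4.36 CPM per kb. Their order rests on the lengths taken, 2871 bases for Ttk and 7557 for Mad2l1. In CPM alone, Mad2l1 at a mean of 89.4 stood above Ttk at 45.9. Neighbours in the per-kilobase order differed by less than the larger of their SDs over libraries, except Bub1 (28.6 ± 11.1 CPM per kb), another checkpoint gene, and Ttk. Each member varied several-fold between libraries, with a coefficient of variation from 34.1% (Mcm4) to 57.1% (Birc5).

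Among the S phase members, Mcm2 to Mcm7 encode the replicative helicase, Pcna the sliding clamp of the polymerases, Rrm1 and Rrm2 the ribonucleotide reductase, and Tyms thymidylate synthase. Values are given in replicate order within each genotype. Mcm2 was read at 367, 414 and 352 in WT/WT, 418, 358 and 649.7 in WT/D45, 468, 583 and 614 in D45/D45, 305, 225, 235, 479 and 826 in WT/KO and 542, 283, 652 and 699.8 in D45/KO (CPM). D45/D45 libraries were all above the WT/WT libraries for Mcm2, and the WT/KO libraries spanned more than the whole range of the other genotypes. Pcna was read at 565, 839 and 638 in WT/WT, 601, 605 and 1122 in WT/D45, 618, 966 and 1045 in D45/D45, 415, 311, 181, 962 and 1256 in WT/KO and 433, 417, 608 and 842 in D45/KO (CPM). The highest and the lowest Pcna values were both in WT/KO, and every genotype overlapped every other. Rrm2, the subunit made in S phase, was read at 905, 1529 and 1103 in WT/WT, 633, 1084 and 1427 in WT/D45, 988, 1649 and 1646 in D45/D45, 445, 335, 275, 1311 and 1871 in WT/KO and 788, 679.7, 825 and 1338 in D45/KO (CPM). Every B-rich library was below every B-poor library for Rrm2, at most 988 against at least 1084 CPM. The other S phase members followed the same outline. Tyms lay at 41.4, 99.9 and 147 CPM (lowest, median and highest) in the 9 B-rich libraries and 121, 176 and 221 CPM in the 9 B-poor ones. Mcm5 lay at 148, 345 and 499.7 CPM (lowest, median and highest) in the 9 B-rich libraries and 284, 471 and 616 CPM in the 9 B-poor ones. Both overlapped between the sets of libraries.

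Among the mitosis members, the cyclin-dependent kinase and its cyclins (Cdk1, Ccna2, Ccnb1, Ccnb2) drive entry. Cdk1 was read at 183, 405 and 279 in WT/WT, 173, 363 and 491 in WT/D45, 206, 517 and 454 in D45/D45, 124, 86.4, 45.7, 344 and 414 in WT/KO and 215, 156, 182.3 and 290.9 in D45/KO (CPM). The lowest B-poor library stood at 279 CPM and the highest B-rich library at 215 CPM, so the sets did not overlap, whereas the genotypes did. Ccnb1, cyclin B1, was read at 163.8, 197 and 226 in WT/WT, 152, 226 and 388 in WT/D45, 223, 352 and 353 in D45/D45, 123, 77.0, 55.4, 242 and 326 in WT/KO and 199, 223, 248 and 366 in D45/KO (CPM). WT/KO held the 3 lowest values of all 18 libraries and a value of 326 CPM, within the range of D45/D45. Ccna2, cyclin A2, lay at 172, 423 and 683 CPM (lowest, median and highest) in the 9 B-rich libraries and 811, 939 and 1193 CPM in the 9 B-poor ones.

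The mitotic kinases and the chromosome genes varied in the same way. Plk1, a kinase of entry, spindle and cytokinesis, was read at 123, 188 and 177 in WT/WT, 121, 184 and 308 in WT/D45, 171.3, 304 and 301 in D45/D45, 91.0, 63.1, 53.1, 184 and 314 in WT/KO and 190.5, 136, 238 and 295 in D45/KO (CPM). The 3 B-rich WT/KO libraries were the lowest of all 18 for Plk1, and the B-poor WT/KO replicate 5 was the highest. Mki67 was read at 3408, 6237 and 5242 in WT/WT, 2538, 5684 and 9661 in WT/D45, 4784, 5602 and 8252 in D45/D45, 2044, 2049, 4108, 7561 and 5237 in WT/KO and 4735, 4479, 9029.9 and 7633 in D45/KO (CPM). D45/KO replicate 3, a B-rich library, was second only to WT/D45 replicate 3 for Mki67, and all genotypes overlapped. Top2a, the topoisomerase that untangles sister chromatids, was read at 956, 1509 and 1125 in WT/WT, 782, 1582 and 2276 in WT/D45, 1059, 1724 and 1722 in D45/D45, 608, 520.2, 469, 1578 and 1710.5 in WT/KO and 1082, 717, 1301 and 1404 in D45/KO (CPM). Its lowest values were again the B-rich WT/KO libraries.

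The spindle and checkpoint members are given by their ranges. Aurkb, the kinase of the chromosomal passenger complex, lay at 20.1, 122 and 177 CPM (lowest, median and highest) in the 9 B-rich libraries and 194, 255 and 333 CPM in the 9 B-poor ones. Bub1b, of the spindle checkpoint, lay at 66.8, 123 and 203 CPM (lowest, median and highest) in the 9 B-rich libraries and 201, 254 and 301 CPM in the 9 B-poor ones. Cdc20, which activates the anaphase-promoting complex, lay at 27.9, 126 and 162 CPM (lowest, median and highest) in the 9 B-rich libraries and 162, 251.9 and 294 CPM in the 9 B-poor ones. Of these, only Aurkb had sets that did not overlap. Kif11, the motor that pushes spindle poles apart, lay at 168, 337 and 471 CPM (lowest, median and highest) in the 9 B-rich libraries and 486, 639 and 766 CPM in the 9 B-poor ones. Cenpe, a kinetochore motor, lay at 119, 224 and 373 CPM (lowest, median and highest) in the 9 B-rich libraries and 199, 326 and 471 CPM in the 9 B-poor ones. Tpx2, which nucleates spindle microtubules, lay at 125, 249.9 and 451 CPM (lowest, median and highest) in the 9 B-rich libraries and 432, 526 and 673 CPM in the 9 B-poor ones. Kif11 did not overlap between the sets and the other 2 did.

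**Figure D1:**
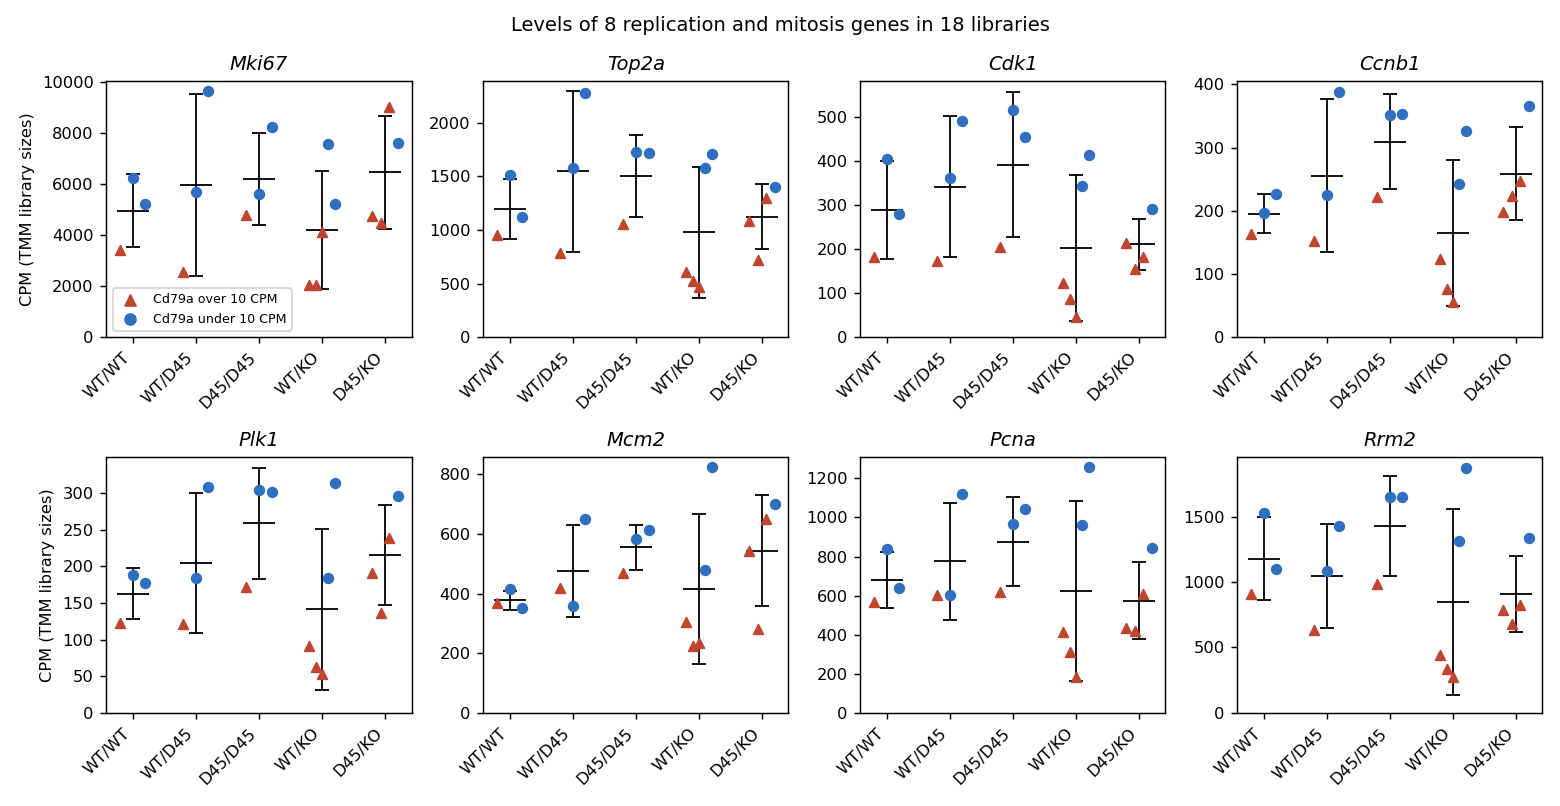
Levels of 8 members in CPM (TMM library sizes) in each of the 18 libraries by Klf1 genotype, with Cd79a-high (B-rich) libraries as triangles and Cd79a-low libraries as circles; horizontal lines are genotype means and error bars the SD. For Cdk1 and Rrm2 every triangle lies below every circle, and genotypes overlap for all 8 genes except that Mcm2 in D45/D45 (468 to 614 CPM) lies above WT/WT (352 to 414 CPM).

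No member differed between genotypes by the test. With edgeR's quasi-likelihood test on all 18 libraries and Benjamini-Hochberg adjustment over the 13405 genes, 0 of 32 members were called at an adjusted p under 0.05 in each of the 6 pairs of genotypes compared, in the interaction of D45 with the null allele, and in the test of any difference among the 5 genotypes. In all 8 tests 0 members had an unadjusted p under 0.05, and DESeq2 and limma-voom also gave 0 by either measure. With Cd79a as a covariate 0 members were called, while 3.19% of all genes were called in D45/KO against WT/KO and 0.0373% in WT/KO against WT/WT. In these pairs 14 and 9 members had an unadjusted p under 0.05 (edgeR). With the mean of the B cell markers as covariate, 7 and 0 members did, and 0 were called. The share of all genes at that unadjusted level was not counted for these fits. The pairs share libraries, WT/WT in 4 of them, so their values are set side by side and not related to each other. The labels describe the libraries as biological replicates. Fold changes in the next paragraphs are log2 values ± SE.

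D45/KO against WT/KO asks what D45 does beside a null allele. Of all genes, 0.172% were called, and none was a member (smallest adjusted p 0.927, edgeR). An unadjusted p under 0.05 was reached by 5.41% of genes, and libraries of the pair did not overlap for 2.71%, none of them a member. The median over members was 0.27 and 29 of 32 lay above 0, beside a median of -0.15 over all genes. With erythroblast marker factors the members' median was -0.14. Cyclin B1 had the highest value, Ccnb1 at 0.65 ± 0.44 (258.9 ± 74.2 CPM, n = 4, against 165 ± 116 CPM, n = 5; SD). Kif23, a motor of the central spindle, had the lowest at -0.22 ± 0.44. The median of the 22 mitosis members was 0.30 and that of the 10 S phase members 0.14. Without WT/KO replicate 3 the S phase median was -0.08 and the median of all members 0.07, and without WT/KO replicate 5 the latter was 0.61. In the same comparison 13 of 13 B cell markers lay below 0 (median -1.82), and their part in the members' values was not tested.

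D45/KO against WT/WT sets the compound heterozygote beside mice with both alleles intact. Here 0.619% of genes were called and 0 members (smallest adjusted p 0.794, edgeR), and 8.93% of genes reached an unadjusted p under 0.05. The median over members was -0.05, with 13 of 32 above 0, against 0.07 over all genes, and it was 0.46 with library totals. Without WT/WT replicate 1 it was -0.20, and without WT/WT replicate 2 it was 0.11. Nusap1, a microtubule bundling protein of the spindle, was lowest at -0.77 ± 0.66 and Mcm2 highest at 0.53 ± 0.45. The Nusap1 libraries overlap, at 397, 446, 562 and 660.0 CPM in D45/KO and 315, 972 and 1348 CPM in WT/WT.

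D45/D45 against WT/WT asks for the effect of a pair of D45 alleles, and WT/D45 against WT/WT for that of 1. Each called 0% of genes, and 4.07% and 1.45% of genes had an unadjusted p under 0.05. In D45/D45 the median over members was 0.37, with 31 of 32 above 0 (all genes 0.01), and it was -0.06 with erythroblast marker factors. Plk1 was highest at 0.67 ± 0.56 and Cenpf, of the outer kinetochore, lowest at -0.13 ± 0.48. The libraries of 4 members, Mcm2, Mcm3, Mcm4 and Mcm5, did not overlap between D45/D45 and WT/WT, as was so for 11% of all genes. In WT/D45 the median over members was 0.25 with 30 of 32 above 0 (all genes 0.10), and it was -0.09 without WT/D45 replicate 3 and 0.50 without WT/D45 replicate 1. Mcm3 was highest at 0.40 ± 0.45 and Nusap1 lowest at -0.34 ± 0.71. In no other pair did any member's libraries stay apart. Among all genes, this was so for 4.04% when WT/D45 was set against WT/WT, for 1.61% with WT/KO and for 10.2% with D45/KO in its place, and for 4.77% of genes between D45/KO and D45/D45.

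WT/KO against WT/WT is the loss of 1 allele. It called 0% of genes (4.27% at an unadjusted p under 0.05), and the smallest adjusted p of a member was 0.818 (edgeR). The median over members was -0.28, with 1 of 32 above 0, while that of all genes was 0.26. With erythroblast marker factors the members' median was 0.13, and in the B-poor libraries alone it was 0.27. It was -0.60 without WT/KO replicate 5 and -0.10 without WT/KO replicate 3. Nusap1 was lowest at -0.78 ± 0.63 and Mcm2 highest at 0.13 ± 0.43. WT/KO holds 3 B-rich libraries of 5 and WT/WT 1 of 3. Of the B cell markers 13 of 13 lay above 0 (median 1.49) and of the erythroblast markers 14 of 14 below 0 (median -0.43), and the part of this in the members' values was not tested.

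D45/KO against D45/D45 replaces 1 D45 allele by a null one. It called 0.00746% of genes and no member, and 2.26% of genes reached an unadjusted p under 0.05. The median over members was -0.42, with 1 of 32 above 0 (all genes 0.06), but 0.11 with library totals and 0.05 with erythroblast marker factors. Birc5, the survivin subunit of the chromosomal passenger complex, was lowest at -1.07 ± 0.65 (303 ± 95.1 CPM, n = 4, against 637 ± 313 CPM, n = 3; SD), and Mki67 highest at 0.06 ± 0.75. D45/KO holds 3 B-rich libraries of 4 and D45/D45 1 of 3. In the same comparison 14 of 14 erythroblast markers lay below 0 (median -0.48) and 10 of 10 macrophage and monocyte markers above 0 (median 2.62, 8 at an unadjusted p under 0.05 and 0 called). Their part in the members' values was not tested. The interaction of D45 with the null allele also called 0.00746% of genes (2.45% unadjusted) and no member, with a median of 0.05 over members, which was -0.19 without WT/D45 replicate 1 and 0.40 without WT/D45 replicate 3. The test of any difference among the 5 genotypes called 0.336% of genes (4.8% unadjusted), with a smallest adjusted p of 0.998 among members (edgeR). By group mean under TMM, 27 members were highest in D45/D45 and 28 were lowest in WT/KO, all within the spread between libraries. The share of all genes in such an order was not counted. Members also rise and fall together, so these counts do not rank the genotypes.

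**Figure D2:**
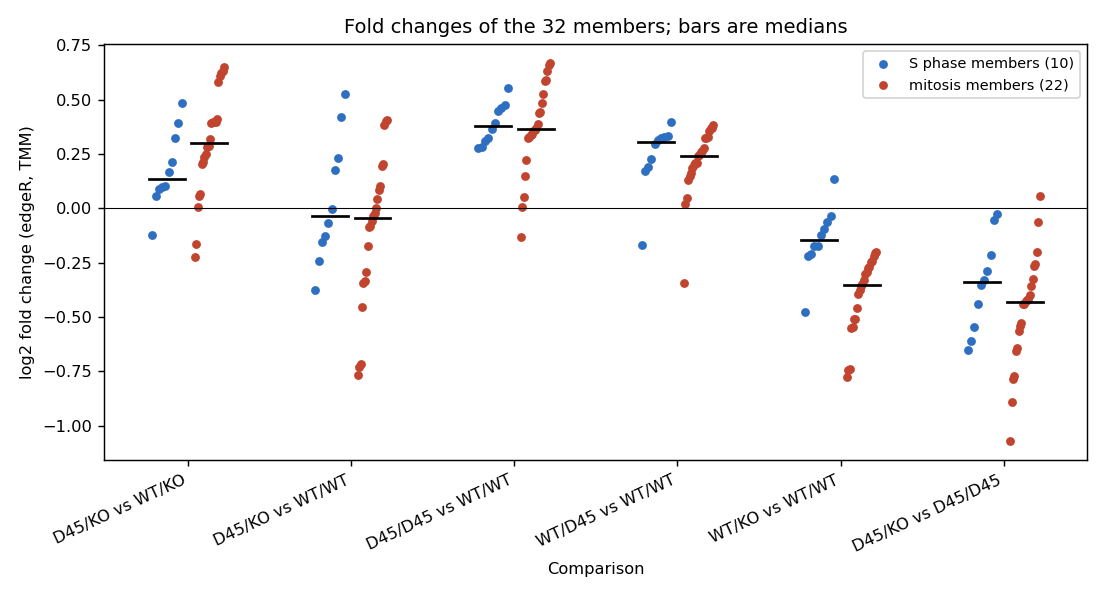
Log2 fold changes (edgeR, TMM) of the 10 S phase and 22 mitosis members in the 6 genotype comparisons; each point is 1 gene and each bar the median of its set. Medians run from -0.42 (D45/KO vs D45/D45, all members) to 0.37 (D45/D45 vs WT/WT), none of the points passed the test, and with erythroblast marker factors these medians become 0.05 and -0.06.

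The members moved with Cd79a far more clearly than with genotype, in a direction set by the scaling. In a fit with genotype, each member's slope is its log2 change per doubling of Cd79a. With TMM, 31 of 32 members fell as Cd79a rose at an adjusted p under 0.05 (edgeR), where 53.4% of all genes were called, 24% lower and 29.4% higher, and with library totals 0 members were called lower and 5 higher. The slope was steepest for Nusap1 at -0.18 ± 0.02 (adjusted p = 1.4e-06), Birc5 at -0.18 ± 0.02 and Cdk1 at -0.16 ± 0.02. It was shallowest for the helicase genes Mcm4 at -0.06 ± 0.03 (adjusted p = 0.055, the member that was not called), Mcm5 at -0.07 ± 0.02 and Mcm3 at -0.07 ± 0.02 (edgeR). Between them stood Mki67 at -0.11 ± 0.03, Pcna at -0.12 ± 0.02 and Rrm2 at -0.14 ± 0.02. The median slope was -0.13 for the mitosis members, -0.09 for the S phase members and 0.03 for all genes.

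With library totals in place of TMM the members' median slope was 0.03 and that of all genes 0.16, with 68.8% of genes called higher. With size factors from the 14 erythroblast markers, all 32 member slopes were above 0, 25 were called higher and the median was 0.06, while that of all genes was 0.19 and 80.7% of genes were called higher. A scaling moves the slopes of all genes together, so the order of the genes is bound to stay much the same: under TMM, library totals and erythroblast marker factors all 32 members had a slope below the median of all genes, with Nusap1 and Birc5 lowest and Mcm4 and Mcm5 highest. In B-poor libraries alone 17 of 32 members were below that median. The erythroblast markers themselves had a median slope of -0.18 under TMM, with 14 of 14 called lower, Gata1 at -0.16 and Nfe2 at -0.24 among them, and all members but Nusap1 and Birc5 lay above that median. Under TMM the members' median slope thus lay between that of the erythroblast markers and that of all genes.

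**Figure D3:**
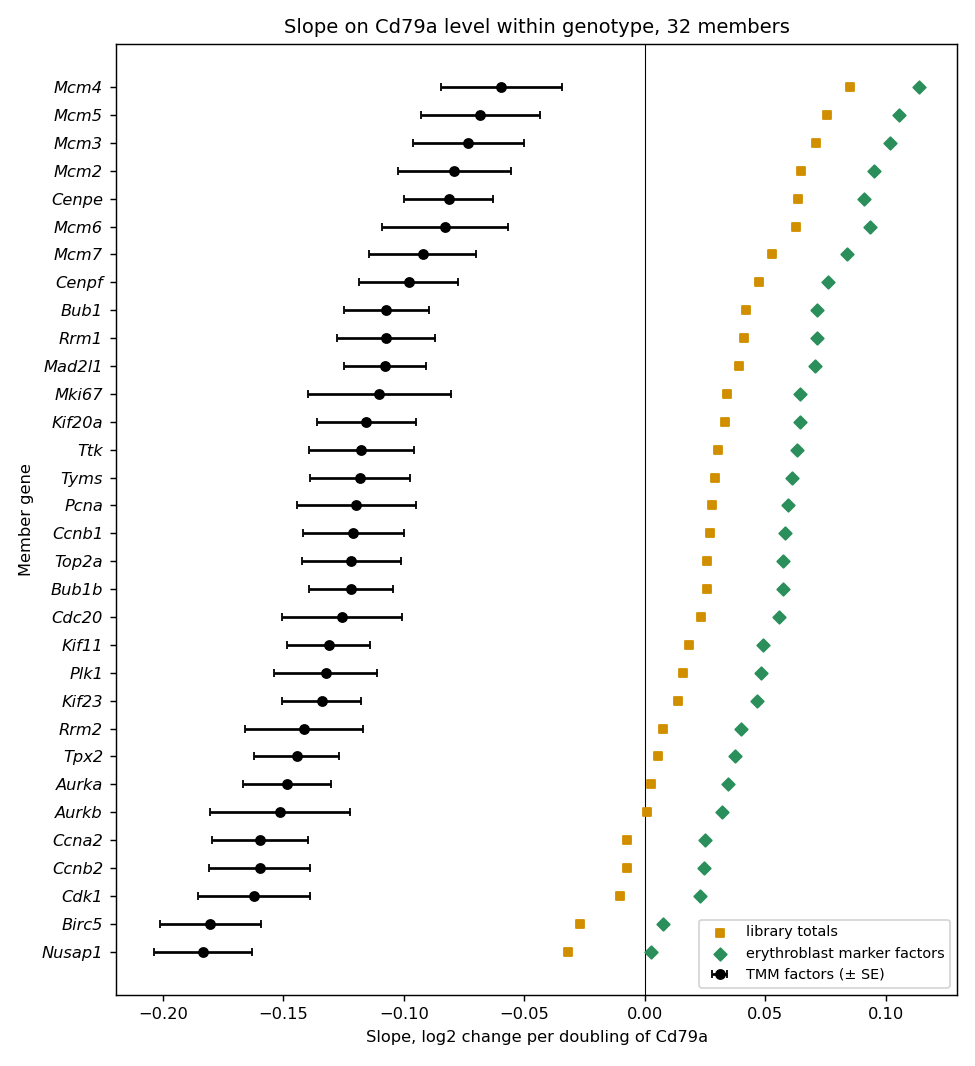
Slope of each member on Cd79a within genotype, in log2 units per doubling of Cd79a, with TMM (circles, ± SE), library totals (squares) and erythroblast marker factors (diamonds). The TMM slopes lie between -0.18 (Nusap1) and -0.06 (Mcm4), and all 32 diamonds lie above 0, so the sign depends on the scaling while Nusap1 and Birc5 stay lowest and Mcm4 and Mcm5 highest.

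Fits within the B-rich or the B-poor libraries alone cannot decide whether the slope rests on the contrast between them. They leave 1 library in some genotypes, and Cd79a was at 0 to 28 counts in B-poor libraries. Over all libraries the members' median slope was -0.12 with TMM. Within the 9 B-poor libraries alone 0 members and 0.0146% of genes were called (median slope -0.01, 20 of 32 below 0, 0 at an unadjusted p under 0.05), and within the 9 B-rich libraries alone 0 members and 1.54% of genes were called (median -0.27, 31 of 32 below 0, 1 at an unadjusted p under 0.05 with edgeR). Under TMM, 10 members had CPM ranges that did not overlap between B-rich and B-poor libraries. These were Rrm2, Ccna2, Ccnb2, Cdk1, Aurka, Aurkb, Kif11, Kif23, Birc5 and Nusap1. The share of all genes with ranges apart in this way was not counted, so the 10 cannot be read as particular to the members. For Birc5 the ranges were 87.6 to 305 and 438 to 886 CPM. The mean log2 CPM of the mitosis members ran from 6.42 to 8.18 in B-rich and 8.30 to 8.95 in B-poor libraries with TMM, from 7.13 to 8.60 and 6.85 to 8.74 with library totals, and from 7.79 to 8.60 and 7.43 to 8.27 with erythroblast marker factors. With DESeq2's size factors it ran from 6.74 to 8.16 and from 8.29 to 8.76. For the mitosis members the sets were thus apart with TMM and with DESeq2's factors and overlapped with the other 2. The S phase means overlapped under each scaling, at 7.11 to 8.63 in B-rich and 8.37 to 9.36 in B-poor libraries with TMM. With DESeq2's factors the S phase means ran from 7.43 to 8.61 and from 8.36 to 9.15.

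**Figure D4:**
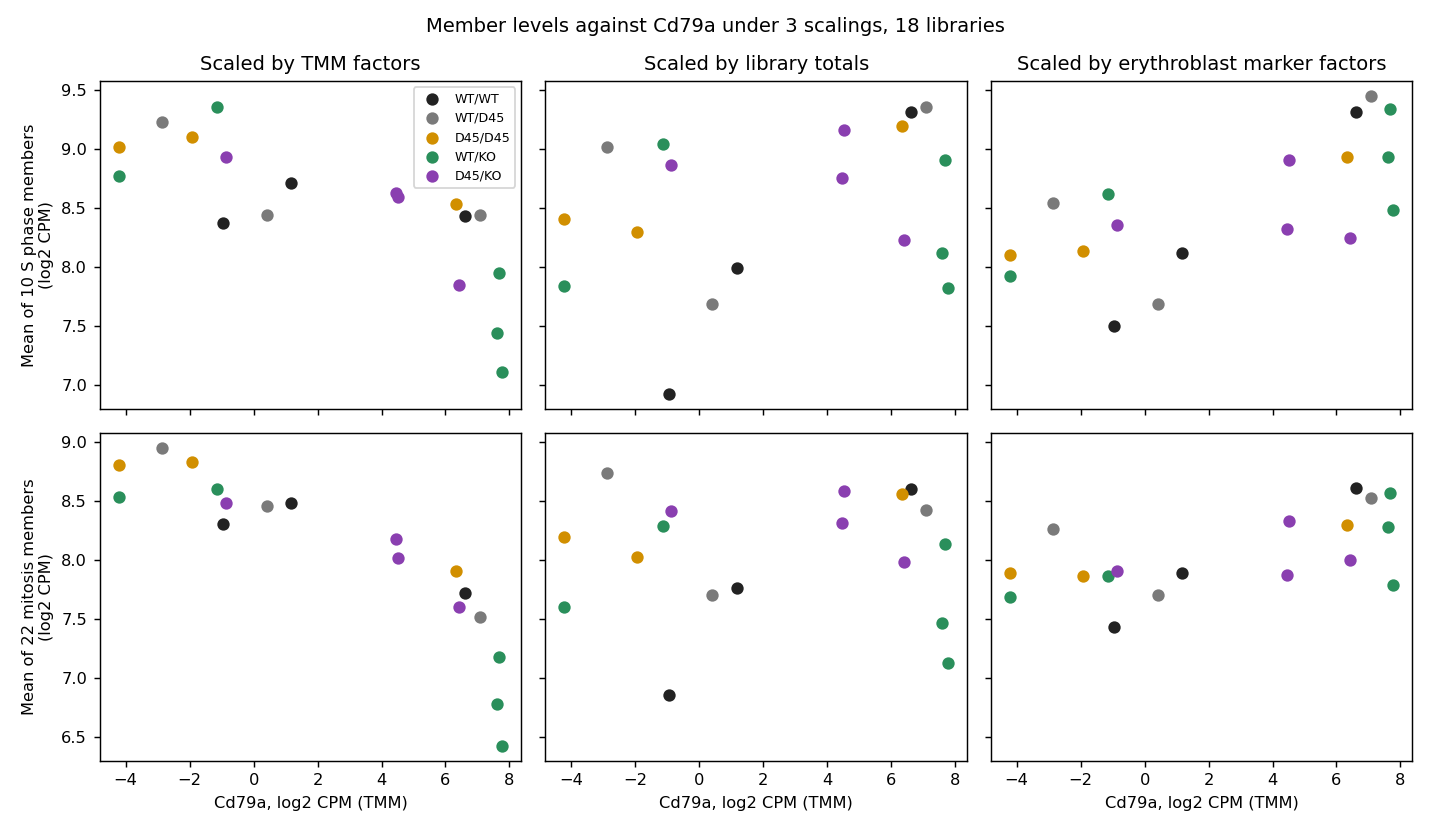
Mean log2 CPM of the 10 S phase members (top) and 22 mitosis members (bottom) in each library against Cd79a (log2 CPM), under TMM factors, library totals and erythroblast marker factors; colours are genotypes. The mitosis means of B-rich libraries lie below those of B-poor ones with TMM (6.42 to 8.18 against 8.30 to 8.95) and overlap with them on the other 2 scales plotted. The S phase means overlap on every scale plotted, with TMM at 7.11 to 8.63 in B-rich against 8.37 to 9.36 in B-poor libraries.

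Within B-rich libraries the members were higher in D45/KO than in WT/KO when scaled by TMM, a comparison added after the data were seen. Of 32 members, 11 rose at an adjusted p under 0.05 (edgeR), where 4.84% of 14611 genes were called higher, and 0 were called with library totals (1.7% of genes higher) or with erythroblast marker factors (0.335%). The 11 were Rrm2 of the S phase set and the mitosis members Ccna2, Ccnb1, Ccnb2, Aurka, Bub1, Plk1, Kif11, Cenpe, Nusap1 and Tpx2. Plk1 rose most, by 1.49 on the log2 scale (adjusted p = 0.021), from 91.0, 63.1 and 53.1 CPM to 190.5, 136 and 238 CPM. The members' median was 1.07 with TMM, 0.59 with library totals and -0.27 with erythroblast marker factors, beside -0.10, -0.55 and -1.37 over all genes. Cd79a was 22.0 to 85.2 CPM in these D45/KO libraries and 195 to 219 CPM in the WT/KO ones, and its part in the result was not tested. Among B-poor libraries the members' median was -0.06 and 0 were called.

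The members rose and fell together. Across the 18 libraries, with genotype means removed, the median correlation over the 496 pairs of members was 0.91. All pairs share the libraries and their scaling, which by itself raises such values. The pair most alike was Aurka and Ccna2 at 0.99, and the least alike Cenpf and Mcm4 at 0.33. The median was 0.93 within each set and 0.86 between the S phase and mitosis sets. Mki67, Cenpf and Cenpe had the lowest mean correlation with the other members, 0.68, 0.68 and 0.69.

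A measure that hardly depends on scaling is the mean log2 CPM of the mitosis members minus that of the S phase members in the same library. It was -0.71, -0.23 and -0.07 in WT/WT, -0.93, 0.02 and -0.28 in WT/D45, and -0.64, -0.22 and -0.27 in D45/D45. It was -0.78, -0.66, -0.69, -0.24 and -0.76 in WT/KO and -0.58, -0.25, -0.45 and -0.45 in D45/KO. B-rich libraries had a median of -0.66 and B-poor ones of -0.24, and the sets overlapped, with B-rich libraries up to -0.25 and B-poor ones down to -0.76. Genotypes overlapped throughout. Taken relative to the mean of the 32 members in the same library, Mcm4 had a median of -0.03 log2 units in B-rich and -0.66 in B-poor libraries, and Mcm5 of 0.57 and 0.01. Nusap1 went the other way, from 0.52 in B-rich to 1.30 in B-poor libraries, and Birc5 from 0.08 to 0.71. Mcm4 and Mcm5 thus made up more, and Nusap1 and Birc5 less, of the members' signal in B-rich libraries. All of these were named for their slopes on Cd79a in the same libraries. Their directions here restate the order of the slopes and are no further result. The part of the germinal centre B cell transcripts was not tested. Their summed level over 5 markers was 7.09 to 36.7 CPM in B-rich and 4.08 to 19.1 CPM in B-poor libraries.

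**Figure D5:**
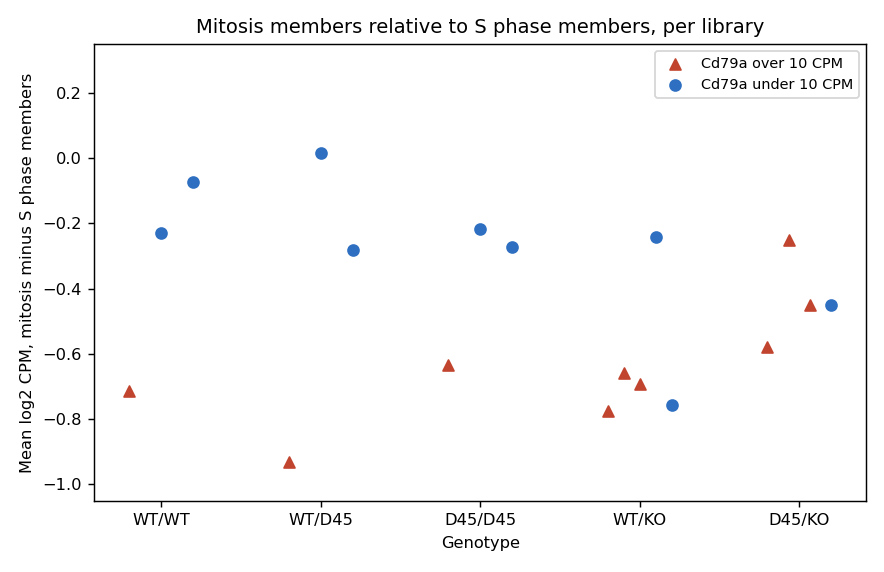
Mean log2 CPM of the 22 mitosis members minus that of the 10 S phase members in each of the 18 libraries, by genotype; triangles are B-rich libraries (Cd79a over 10 CPM) and circles B-poor ones. B-rich libraries lie between -0.93 and -0.25 and B-poor ones between -0.76 and 0.02.

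Other genes of the same pathways were counted from lists of 43 further replication genes, 80 further mitosis genes (79 tested) and 17 genes of nucleotide supply. In the 8 genotype tests 0 genes of these lists were called (edgeR). On the Cd79a slope with TMM, 24% of all genes were called lower and 29.4% higher (median 0.03, edgeR). Of the mitosis genes, 78 of 79 were called lower (median -0.13). They include Ube2c, the ubiquitin-conjugating enzyme of anaphase, at -0.19 ± 0.02 and Spc25, a kinetochore subunit, at -0.19 ± 0.02. Fbxo5, an inhibitor of the anaphase-promoting complex, stood at -0.16 ± 0.02. Of the replication genes, 32 of 43 were called lower and none higher (median -0.07). They include Dbf4, the activator of the origin-firing kinase, at -0.15 ± 0.02, Gins4, of the helicase complex, at -0.12 ± 0.02 and Gmnn, the inhibitor of relicensing, at -0.16 ± 0.02. Among the nucleotide supply genes, 6 of 17 were called lower, such as thymidine kinase Tk1 at -0.14 ± 0.03. Another 6 were called higher, such as Cad, of pyrimidine synthesis, at 0.20 ± 0.03. Their median was 0.035, beside 0.032 for all genes. All genes were also called in both directions, so this split is not particular to them. These directions hold for TMM, since the scaling shifts all slopes together.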

How the data were processed

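Libraries were made from CD71 and TER119 positive spleen cells, 1 column of the count table per mouse. The deposited values are raw counts per gene symbol, and per the submitters' processing notes HISAT2, featureCounts, limma and the mm9 genome were used, without versions or roles. Whether strand was used in counting is not stated there, so a gene and an overlapping antisense gene cannot be told apart. The members and gene lists were chosen with earlier results of these data known.

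Each library's genotype label gave its group. The counts were tested in R 4.3.3 with edgeR 4.0.16 (filterByExpr by genotype, 13405 of 23365 genes kept, TMM, quasi-likelihood F tests, Benjamini-Hochberg adjustment over all genes tested, called at an adjusted p under 0.05). The Cd79a slope is the coefficient of log2 CPM of Cd79a (prior count 2) in a fit with genotype. SE is the absolute log2 fold change divided by the square root of F. DESeq2 1.42.0 and limma 3.58.1 (voom) were alternatives, and the tests were first checked on simulated data. B-rich and B-poor libraries were divided at 10 CPM of Cd79a after the data were seen. Erythroblast marker factors set the mean log count of 14 markers equal between libraries. Per-kilobase levels used the longest coding transcript of GENCODE M21. The depth was 9360455 to 56323588 counts per library, with 3 to 5 libraries per genotype.

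The rule for named genes gave a fixed set of members spanning the roles, the highest and lowest member of each comparison, the 3 highest and 3 lowest slopes, and up to 3 called genes of each wider list and direction. For length, 8 members have all 18 values printed and the others their ranges. Replicate numbers in the labels were not used to pair libraries in the tests above. Same-numbered libraries of different genotypes were alike for some numbers and not for others.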

Additional observations from a re-analysis of the deposited data

Results flagged for a closer look

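In 66 groups of 4 or 5 values, 2 held a value set apart from the others by more than Dixon's 95% limit, where chance sets apart about 1 group in 20. Mcm5 was 240.1 CPM in D45/KO replicate 2, against 495 to 542 CPM in the other 3 D45/KO libraries. This library also had the lowest Klf1 of its genotype, 282 CPM, the highest Cd79a, 85.2 CPM, and even numbers in 98.5% of its nonzero counts. The mitosis minus S phase measure was -0.24 in WT/KO replicate 4, against -0.78 to -0.66 in the other 4 WT/KO libraries. That library is B-poor, with Cd79a at 0 CPM. WT/KO replicate 5, which is also B-poor, had a measure of -0.76.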

How the results depend on the processing

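In the 8 genotype tests 0 members were called under every other scaling, filter, tool and covariate tried, and whichever 1 library was left out (0 to 0). The exception was a subset chosen after the data were seen: with B-rich libraries alone, 11 members were called in D45/KO against WT/KO, and there 3 genotypes have 1 library each, assumed to vary like the others. The number of called members on the Cd79a slope was 31 with TMM, 30 to 32 without any 1 library, 30 with DESeq2 and 32 with limma-voom. The share of all genes called was 53.4% with TMM and 46 to 53.2% without any 1 library. It was 59.7% with DESeq2 and 57.4% with limma-voom. The number of called members was 32 with the mouse number as a covariate, where 40.4% of all genes were called. It reversed to 5 called higher with library totals and 25 called higher with erythroblast marker factors, and was 0 in B-poor and 0 in B-rich libraries alone. The slopes of the named members reversed with library totals for Mcm3 (0.0712), Mcm5 (0.0758), Mki67 (0.0340), Pcna (0.0279) and Rrm2 (0.00777). With erythroblast marker factors they were 0.102 for Mcm3, 0.106 for Mcm5, 0.0644 for Mki67, 0.0594 for Pcna, 0.0401 for Rrm2, 0.0230 for Cdk1, 0.00741 for Birc5 and 0.00240 for Nusap1. In B-poor libraries alone, Mcm3 (0.0329), Mcm5 (0.0172), Cdk1 (0.0227) and Rrm2 (0.0632) were above 0. The change with scaling follows from its construction, since a factor shifts all genes of a library, and the cause of the other changes was not tested.

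With the replicate number as a block, 25 members were called lower on the slope, where 21.3% of all genes were called, 12.7% lower. In each genotype test 0 members were called. An unadjusted p under 0.05 (edgeR) was reached by 26 members in WT/KO against WT/WT (median -1.004) and 16 in D45/KO against WT/KO (median 0.75). It was reached by 8 in D45/KO against D45/D45 (median -0.66), 2 in D45/KO against WT/WT (median -0.30) and 28 for any difference. The share of all genes at that unadjusted level was not counted for this fit, so these counts lack a reference. The numbers pair the libraries only in part: of 31 pairs of same-numbered libraries, 18 had deviations correlated above 0.1 and 9 were negative (range -0.46 to 0.77). Pairs of replicate 1 ran from 0.31 to 0.77 and the pair of replicate 4 stood at 0.63. All 9 negative pairs were of replicate 2 or 3, whose other pairs reached up to 0.63. Replicate 1 is B-rich in all 5 genotypes. Counts of all genes called differed by over 1.5 times between settings, from 6 to 4530 against 23 in D45/KO against WT/KO, from 10 to 572 against 83 in D45/KO against WT/WT, from 27 to 429 against 45 for any difference, and from 2 to 10898 against 7156 on the slope. They ranged from 0 to 186 in D45/D45, 0 to 3 in WT/D45 and 0 to 23 in WT/KO against WT/WT (0 each with the design used), from 0 to 18 against 1 in D45/KO against D45/D45, and from 0 to 25 against 1 for the interaction.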

Other observations

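Other cell types of the spleen also moved with Cd79a under TMM. On the slope, 29.4% of all genes were called higher and 24% lower (edgeR). Called higher were 13 of 13 B cell markers, of which 1 is Cd79a itself, whose call was fixed in advance. So were 4 of 5 plasma cell, 4 of 5 germinal centre B cell, 7 of 10 T and NK cell and 9 of 10 macrophage and monocyte markers. Of the neutrophil markers 4 of 8 were called higher, of the early progenitor markers 3 of 5 and of the mast cell markers 1 of 3. The 4 megakaryocyte markers tested had 3 called lower, and 14 of 14 erythroblast markers were called lower. The summed macrophage and monocyte markers reached 2719 CPM in a B-rich library and 448 CPM at most in B-poor ones. The part of these cells in the members' levels was not tested.

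In D45/D45 replicate 1 and D45/KO replicate 2, 97.3% and 98.5% of nonzero counts were even numbers, against 51.9 to 76.7% in the other 16 libraries. With the counts of these 2 libraries halved, 31 members were still called on the Cd79a slope, where 55% of all genes were called. In the genotype tests 0 members were called.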
